A study of Ovis aries with 23 samples.

Results

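MKI67 (ENSOARG00000014562) and TOP2A (ENSOARG00000014321) are genes of dividing cells, and their read counts were followed in the sheep pars tuberalis (PT) across a change of day length. The pair was chosen by name, with earlier results of these data known, and makes up 2 of the 25197 genes counted in every sample. Their Ensembl identifiers were reached through gene symbols in the supplementary tables of the study. One of those tables lists genes that the study called significantly differentially expressed, and the other annotates a heatmap of its comparisons. Neither the pair nor the other genes given with a symbol was therefore an unselected sample of the genome. The tables draw on comparisons that include these samples, so the direction of either gene of the pair is not independent evidence of a change.

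The PT is a thin glandular layer around the pituitary stalk that reads night-time melatonin and so passes on day length to the brain and the rest of the pituitary. MKI67 encodes the Ki67 protein, which coats mitotic chromosomes and is made by cells in cycle but not by resting cells, and its antibody is a common stain for dividing cells. TOP2A encodes topoisomerase II alpha, the enzyme that cuts and rejoins both strands of DNA to untangle chromosomes before they separate, and its RNA is highest late in the cell cycle. Whether photoperiod starts cell division in this tissue was among the questions of the study.

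All samples were PT RNA of neutered male sheep of the Scottish blackface breed, with no intact animal for comparison. A group of 5 samples came from short photoperiods (SPs), and groups of 6 samples each were taken after 1, 7, or 28 days of long photoperiods (LPs). The labels do not say whether each sample is a separate animal, so p-values measure the spread between these samples, which may in part be technical. Reads per gene were counted by the authors, and levels are given as CPM, which are counts scaled to a common library size, after TMM normalization.

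Total counts ranged between 3048390 and 3691321 for SPs, while LP day 1 held 307952 to 3674567 counts per sample, LP day 7 held 2741520 to 3594414, and LP day 28 held 2190640 to 4413929. A level of 3 counts, taken as the floor, equalled 8.90 CPM for LP day 1 sample 4 and 0.693 to 1.52 CPM for the other samples, and this covers counting error only. At equal depth, LP day 1 samples 3 and 4 differed by little more than counting noise (chi-square per gene 1.07, against 1.53 or more for other pairs of a group). They were therefore summed to 1 sample, which leaves 22 samples and n = 5 at LP day 1. TSHB and CGA, listed as markers of PT thyrotrophs, summed to 4110 to 11982 CPM in single samples. The 6 markers of pars distalis endocrine cells, with prolactin (PRL) among them, summed to 34994 to 272700 CPM. The study also reports TSHβ protein in thyrotrophs of the pars distalis, so the sum of TSHB and CGA is not limited to the PT.

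MKI67 was near the floor in a few samples and well above it in most. On SPs its counts were 36, 6, 14, 55, and 21 in samples 1 to 5, or 9.51, 2.04, 4.05, 17.7, and 5.92 CPM. The SP group thus held both the highest level of the series, in sample 4, and one of the lowest, in sample 2, and their exact 95% Poisson intervals of 13.4 to 23.1 and 0.750 to 4.45 CPM did not touch. At LP day 1 the level was 4.99 CPM in sample 1, 11.96 in sample 2, 7.16 in samples 3 and 4 together, 12.3 in sample 5, and 0.505 in sample 6. LP day 1 sample 6 held a single MKI67 read and lay under the floor, whereas the same sample had 9 reads of TOP2A.

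The later LP groups were tighter for MKI67. Its level ran from 6.27 CPM through a median of 9.02 to 12.6 CPM at LP day 7, and from 6.71 through 11.6 to 16.3 CPM at LP day 28. Every LP day 7 and LP day 28 value lay inside the range of the SP values. Group means were 7.85 ± 6.17 CPM on SPs (SD, n = 5), 7.38 ± 4.95 at LP day 1 (SD, n = 5), 8.98 ± 2.42 at LP day 7 (SD, n = 6), and 11.3 ± 3.79 at LP day 28 (SD, n = 6). From lowest to highest the order was LP day 1, SPs, LP day 7, and LP day 28, and no neighbours in it differed beyond their spread.

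TOP2A varied less within groups. Its SP counts were 20, 13, 35, 27, and 19 in samples 1 to 5, or 5.28, 4.43, 10.1, 8.70, and 5.36 CPM. SP sample 3 was the highest for TOP2A, although it was the second lowest of its group for MKI67. At LP day 1 the values were 7.61 CPM in sample 1, 16.6 in sample 2, 7.16 in samples 3 and 4 together, 6.50 in sample 5, and 4.54 in sample 6. LP day 1 sample 2 stood far above the other samples of its group and held the highest TOP2A level of the series.

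At LP day 7, TOP2A ran from 9.11 CPM through a median of 11.8 to 12.6 CPM, and at LP day 28 from 8.52 through 13.4 to 15.1 CPM. Of the SP samples only sample 3 reached the LP day 7 range, and samples 3 and 4 reached that of LP day 28. The means were 6.78 ± 2.48 CPM on SPs (SD, n = 5), 8.47 ± 4.67 at LP day 1 (SD, n = 5), 11.1 ± 1.55 at LP day 7 (SD, n = 6), and 12.6 ± 2.62 at LP day 28 (SD, n = 6). Adjacent groups in this order did not differ beyond their spread, and the step from SPs to LP day 1 rested on LP day 1 sample 2, without which the log2 fold change of that step was -0.043.

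**Figure D1:**
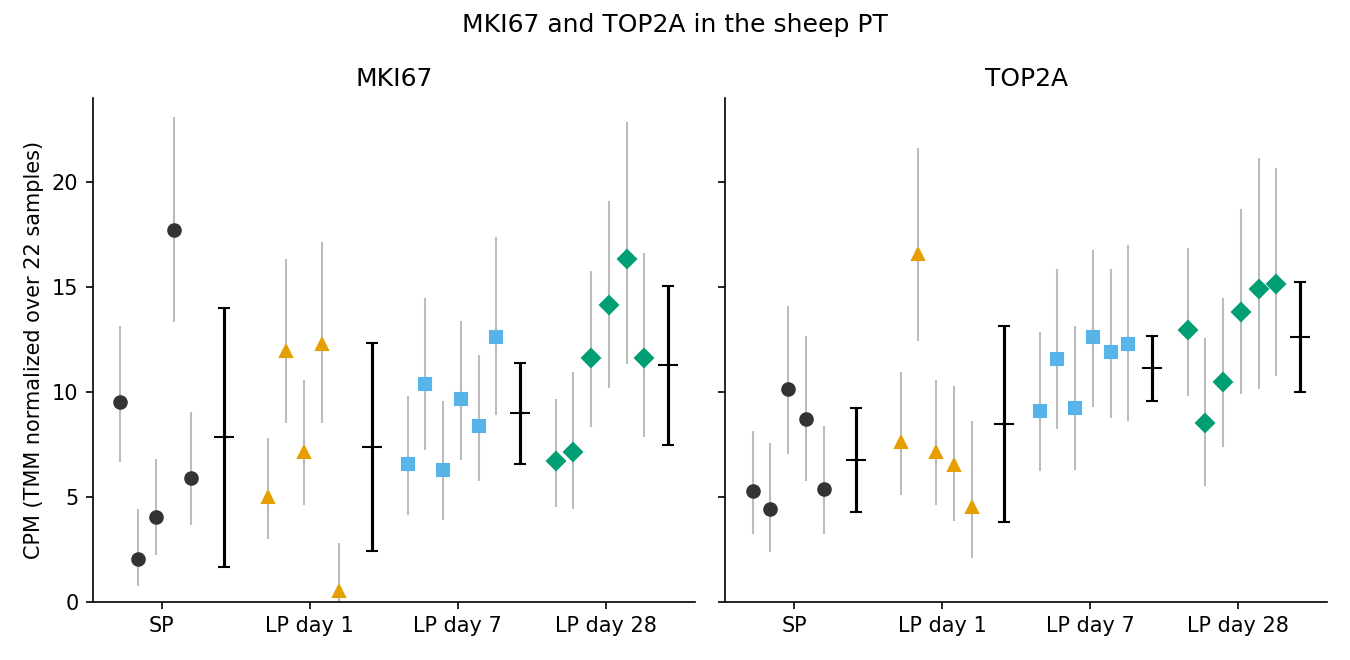
CPM of MKI67 (left) and TOP2A (right) in each of the 22 samples by group, in sample order from left to right, with exact 95% Poisson intervals in grey and the group mean ± SD in black. MKI67 spans 2.04 to 17.7 CPM on SPs alone, whereas TOP2A lies between 9.11 and 12.6 CPM in all 6 samples at LP day 7.

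The spread was set against counting error by the ratio of the observed variance of counts to the variance that counting alone would give, which is 1 for counting noise. For MKI67 this ratio reached 15.1 in the SP group, against 8.07 for LP day 1, 2.12 for LP day 7, and 3.96 for LP day 28. For TOP2A it was 3.02, 7.42, 0.741, and 1.55 in the same order. At LP day 7 the TOP2A samples therefore differed by no more than counting noise, while MKI67 on SPs varied far beyond it.

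MKI67 was not DE in any comparison. A gene counted as differentially expressed (DE) when its false discovery rate (FDR) was under 0.05 in the quasi-likelihood test of edgeR, adjusted over all genes tested by the Benjamini-Hochberg method. That threshold called 0% of 14863 genes between SPs and LP day 1, 0.266% of 15030 between SPs and LP day 7, and 0.67% of 14929 between SPs and LP day 28. For SPs against LP day 1, 473 genes (3.18%) had an unadjusted p under 0.05, DESeq2 called 2 genes, edgeR's exact test 1, and limma with voom 0. Relative to SPs, the log2 fold change of MKI67 came to -0.05 at LP day 1 (standard error 0.55, FDR 1.00, edgeR), 0.19 at LP day 7 (standard error 0.39, FDR 0.869, edgeR), and 0.50 at LP day 28 (standard error 0.40, FDR 0.620, edgeR). The 95% interval at LP day 28, -0.34 to 1.33, includes 0.

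The MKI67 difference at LP day 28 moved with single SP samples. Without SP sample 4 the log2 fold change was 1.01, and without SP sample 2 it was 0.26. Values were also computed over SP samples 2, 3, and 5 alone, a subset chosen with earlier results of these data known, which leaves out the highest SP samples for MKI67 and thus favours a higher fold change of this gene. MKI67 stood at 4.01 ± 1.94 CPM in those samples (SD, n = 3) and at a mean of 13.6 CPM in SP samples 1 and 4, 3.40-fold higher, whereas TOP2A had 6.64 ± 3.05 CPM (SD, n = 3) and a mean of 6.99 CPM. With SP samples 2, 3, and 5 alone, the MKI67 log2 fold change reached 1.13 at LP day 7 (standard error 0.35, FDR 0.254, edgeR) and 1.44 at LP day 28 (standard error 0.38, FDR 0.127, edgeR). Over the same samples, an exact test with a single dispersion for all genes called MKI67 at both days (LP day 7 FDR 0.0287, LP day 28 FDR 3.64e-04, edgeR), and that test called 278 and 440 genes in all.

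TOP2A was higher at LP days 7 and 28 by its point estimates but did not pass the FDR either. Relative to SPs, its log2 fold change came to 0.35 at LP day 1 (standard error 0.35, FDR 1.00, edgeR, and -0.043 without LP day 1 sample 2), 0.72 at LP day 7 (standard error 0.24, FDR 0.183, edgeR), and 0.89 at LP day 28 (standard error 0.25, FDR 0.114, edgeR). The estimate at LP day 28 is a 1.85-fold difference with a 95% interval of 0.36 to 1.42 on the log2 scale. Unadjusted p-values of edgeR were 0.00796 at LP day 7 and 0.00247 at LP day 28, where 14.4% and 13.8% of all genes tested had an unadjusted p under 0.05. By p, TOP2A was 321st of 14929 genes at LP day 28. DESeq2 (FDR 0.0451) and edgeR's exact test (FDR 0.0473) placed it past the threshold there, and these tools called 346 and 264 genes in all.

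No comparison between LP days separated either gene. Between LP days 1 and 7 the log2 fold change was 0.24 for MKI67 (FDR 0.984, edgeR) and 0.36 for TOP2A (FDR 0.961, edgeR), where 0.00663% of 15094 genes were DE. From LP day 7 to LP day 28 it was 0.31 for MKI67 (FDR 0.867, edgeR) and 0.17 for TOP2A (FDR 0.904, edgeR), against 0.00672% of 14890 genes DE. From LP day 1 to LP day 28 it was 0.55 for MKI67 (FDR 0.802, edgeR) and 0.54 for TOP2A (FDR 0.722, edgeR), against 0.167% of 14996 genes DE. Estimates that use LP day 1 moved with the tool. The limma fit with voom, which here also weights samples by quality, gave 1.04 for MKI67 between LP days 1 and 7. Between LP days 1 and 28 it gave 1.24, and neither was past the threshold. These comparisons share groups with one another and with those from SPs. For both genes the groups overlapped in all 6 comparisons, while 2% of genes had no overlap between SPs and either LP day 7 or LP day 28, and 0.363% between SPs and LP day 1, 0.417% between LP days 1 and 7, 0.376% between LP days 7 and 28, and 0.76% between LP days 1 and 28.

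**Figure D2:**
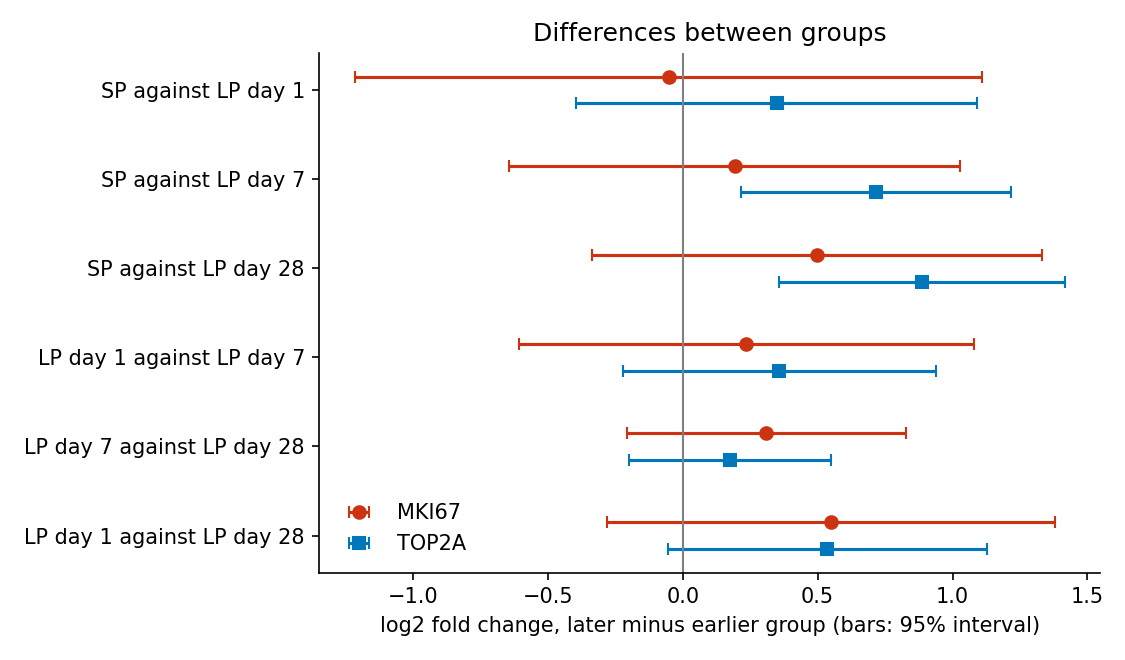
Log2 fold change of the later over the earlier group for MKI67 (circles) and TOP2A (squares) in the 6 comparisons, with 95% intervals from edgeR's quasi-likelihood fit. The TOP2A intervals lie above 0 for SPs against LP day 7 and LP day 28, and the other 10 intervals cross 0.

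A single slope over the 4 groups in their order (SPs, LP day 1, LP day 7, LP day 28) used all 22 samples. TOP2A had a slope of 0.30 log2 units per step (standard error 0.08, 95% interval 0.13 to 0.47, FDR 0.0627, edgeR), just outside the threshold that 1.3% of 15635 genes passed. Leaving out SP sample 3, LP day 1 sample 2, or LP day 28 sample 2 brought its FDR to 0.0426, 0.0148, and 0.0451 in turn, so its side of the threshold depended on single samples. The slope of MKI67 was 0.18 (standard error 0.13, FDR 0.553, edgeR). A test for any difference between the 4 groups gave an FDR of 0.879 for MKI67 and 0.309 for TOP2A (edgeR), and 0.365% of genes passed it.

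The mean of PRL differed in the same direction but did not pass the test (log2 fold change 1.09, standard error 0.37, FDR 0.192, edgeR). It was 72141 ± 37240 CPM on SPs (SD, n = 5) and 153478 ± 70862 CPM at LP day 28 (SD, n = 6). With the log2 level of PRL as a term in the fit, the difference between SPs and LP day 28 was 0.58 for TOP2A (FDR 0.424, edgeR) and 0.12 for MKI67 (FDR 0.948, edgeR). PRL does not stand for the 6 pars distalis markers, of which 2 had a log2 fold change above 0 from SPs to LP day 28 (median -0.07). Those 2 were PRL and POU1F1, while the means of GH1, POMC, LHB, and FSHB were lower at LP day 28. The part of pars distalis tissue in the result was not tested further. In bulk RNA, fewer cells of a type and less RNA per cell cannot be told apart, and this holds for every level given.

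The file headers name a numbered alignment folder for each sample. Folder numbers do not repeat within samples 1 to 3 of the groups or within samples 4 to 6, but do repeat between these sets, so values were also compared within each. These ratios use all 23 samples, because LP day 1 samples 3 and 4 are in different sets. For TOP2A the log2 ratio of LP day 28 to SPs was 0.69 in samples 1 to 3 and 1.06 in samples 4 to 6, and at LP day 7 it was 0.61 and 0.80. The direction was thus the same in both sets. For MKI67 the ratio at LP day 28 was 0.71 and 0.25, and at LP day 7 it was 0.58 and -0.21. At LP day 1 both genes went opposite ways in the sets, with ratios of 0.67 and -1.17 for MKI67 and 0.68 and -0.31 for TOP2A. LP day 1 sample 4, with 1 read of MKI67 and 2 of TOP2A, lay under its floor, and without it the ratios in samples 4 to 6 were -0.88 and -0.34.

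The balance between the genes was followed as the share of MKI67 in the counts of both, which does not depend on library size. On SPs it was 64.3% in sample 1 (exact 95% binomial interval 50.4 to 76.6%) and 67.1% in sample 4 (55.8 to 77.1%), but 31.6% in sample 2 (12.6 to 56.6%), 28.6% in sample 3 (16.6 to 43.3%), and 52.5% in sample 5 (36.1 to 68.5%). The intervals of samples 1 and 4 lay above that of sample 3. These intervals cover counting error only, not the spread between samples. At LP day 7 the share was 40.4 to 50.7% and at LP day 28 it was 34.1 to 52.6%, with overlapping intervals throughout. At LP day 1 it was 65.4% in sample 5 (50.9 to 78.0%) and 10% in sample 6, or 1 of 10 reads (0.253 to 44.5%). Gene length was not corrected for, so the share compares samples and says nothing of which gene was more expressed.

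**Figure D3:**
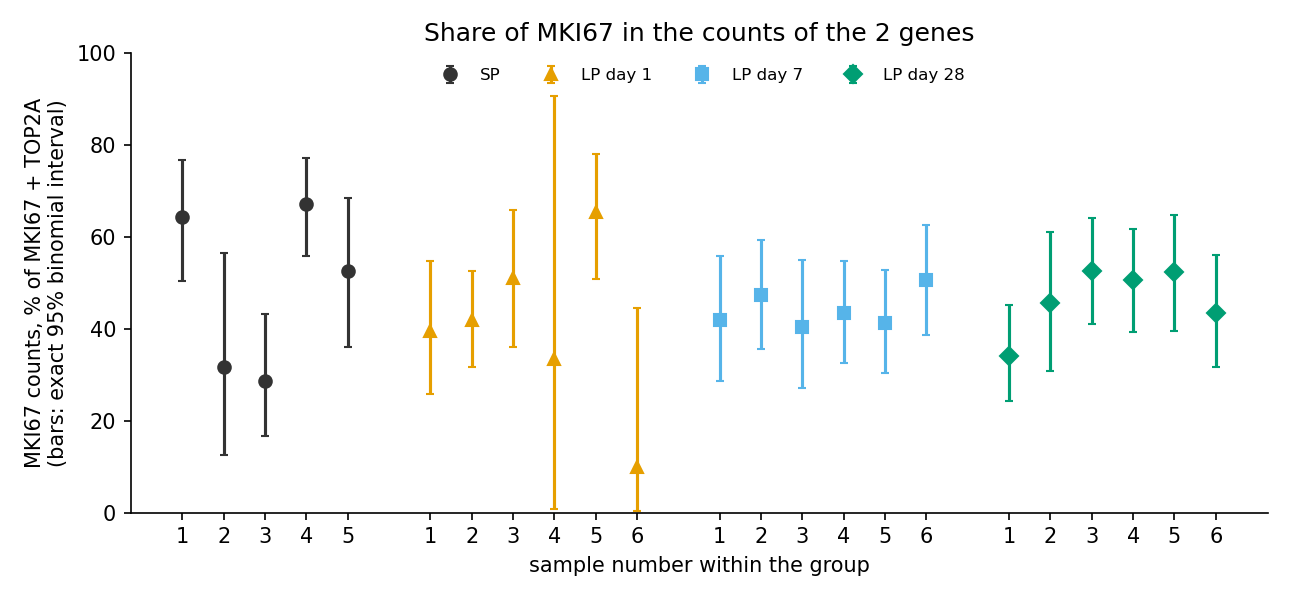
Share of MKI67 in the summed counts of MKI67 and TOP2A (percent, vertical axis) in each of the 23 samples by sample number, with exact 95% binomial intervals. Shares sit between 34.1 and 52.6% in the 12 samples of LP days 7 and 28 and range from 28.6 to 67.1% on SPs.

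Samples with more MKI67 tended to have more TOP2A. Over all 22 samples the log2 CPM values correlated with Pearson's r = 0.644 (permutation p = 6.60e-04, adjusted 0.00330) and Spearman's rho = 0.571 (permutation p = 0.00647, adjusted 0.0216), two-sided, with Benjamini-Hochberg adjustment over the 10 relations computed. The relation rested in part on SP sample 2 and LP day 1 sample 6, the samples farthest from the MKI67 median, without which r was 0.389 (permutation p = 0.0897). After group means were subtracted, r was 0.587 (permutation p = 0.0609, adjusted 0.102) and rho was 0.496 (permutation p = 0.0506, adjusted 0.117). Without LP day 1 sample 6 the centred r was 0.441. Neither centred coefficient passed a threshold of 0.05.

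Within single groups the values went the same way. At LP day 7, r was 0.865 (exact permutation p = 0.0375, adjusted 0.075) and rho 0.657 (exact permutation p = 0.175, adjusted 0.219) over 6 samples. At LP day 28, r was 0.592 (exact permutation p = 0.199, adjusted 0.248) and rho 0.657 (exact permutation p = 0.175, adjusted 0.219) over 6 samples. Without the 2 samples farthest from the MKI67 median, r over the remaining 4 was 0.850 and 0.477. Neither relation passed the adjustment. At LP day 7, MKI67 stood at 6.27 to 8.37 CPM in odd-numbered samples and at 9.66 to 12.6 CPM in even-numbered ones. TOP2A stood at 9.11 to 11.9 and 11.6 to 12.6 CPM in the same order, with overlap. The part of this split in the relation was not tested. Total counts did not track either gene within groups, with r = 0.312 for MKI67 (permutation p = 0.263, adjusted 0.264) and 0.309 for TOP2A (permutation p = 0.264, adjusted 0.264).

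**Figure D4:**
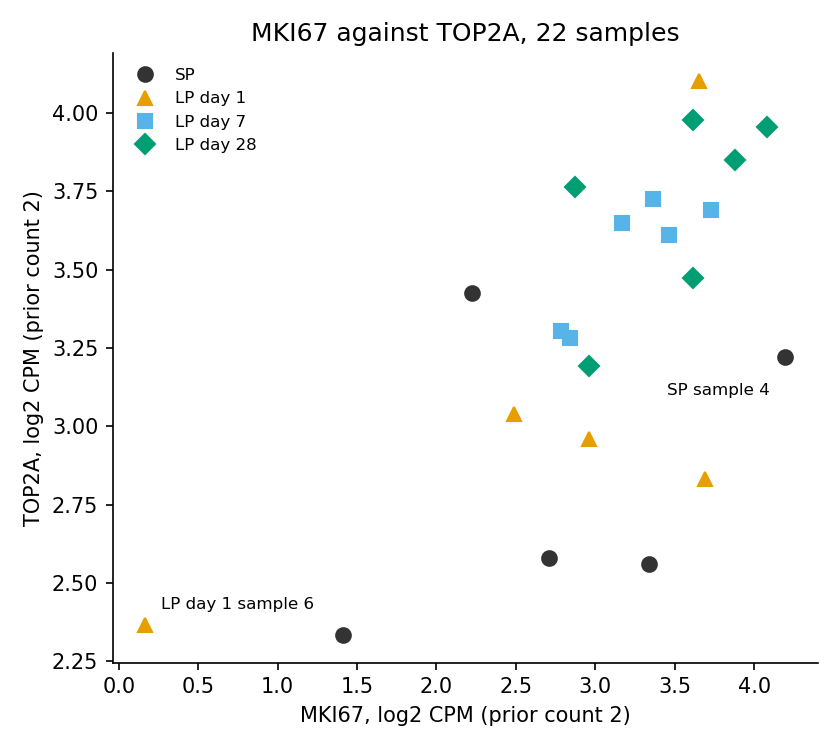
TOP2A (vertical axis) against MKI67 (horizontal axis), both as log2 CPM, in 22 samples marked by group. LP day 1 sample 6 lies at the lower left with a single MKI67 read, and SP sample 4 lies to the right with the highest MKI67 of the series but not the highest TOP2A.

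The genes most like the pair were sought by the r of group-centred log2 CPM over 22 samples, as a description without a test. Among 15634 other genes, TOP2A was 119th by likeness to MKI67, and MKI67 was 109th by likeness to TOP2A. Only 1102 of these genes had a symbol. Those closest to MKI67 were TRDC, a T cell receptor delta chain gene (r = 0.69), the AP-1 factor gene FOSL2 (r = 0.67), IGJ, the joining chain of secreted antibodies (r = 0.64), WDFY4 (r = 0.64), and PIK3CG, a phosphoinositide kinase of leukocytes (r = 0.63). Closest to TOP2A were LCP2, a signalling adaptor of T cells (r = 0.71), the ribosomal protein gene RPS26 (r = 0.69), SLC17A9 (r = 0.60), GPR101 (r = 0.60), and PRO (r = 0.60). For scale, the 95th percentile of r over all genes was 0.40 for MKI67 and 0.43 for TOP2A.

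The summed level of leukocyte markers tracked both genes between samples. LCP1 made up 49.7% of the sum, PTPRC 13.7%, and LCP2 10.9%. The summed level of 12 such markers ran from 164 to 495 CPM in the SP group, and LP day 1 samples held 173 to 257 CPM, LP day 7 samples 173 to 341, and LP day 28 samples 218 to 412. SP sample 4, the highest for MKI67, had the sum of 495 CPM, and SP sample 2, the lowest SP sample for both genes, had 164 CPM. PTPRC, the pan-leukocyte surface phosphatase CD45, had counts in every sample, and none of the 12 markers was DE in any pair comparison. All 12 were tested between SPs and LP day 28, and 11 in each of the other pairs. In the list, PTPN22 was at 0 in 5 samples, PIK3CG in 2, and CD5 and ITGA4 in 1 each, with LP day 1 sample 4 among them for all of these.

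With group means subtracted, the log2 sum correlated with MKI67 at r = 0.650 (permutation p = 3.70e-04, adjusted 0.00330) and rho = 0.710 (permutation p = 6.10e-04, adjusted 0.00305) over 22 samples. For TOP2A, r was 0.602 (permutation p = 0.00114, adjusted 0.00380) and rho was 0.714 (permutation p = 3.30e-04, adjusted 0.00305). Both held without the 2 samples farthest from the median of the sum, SP samples 2 and 4, with r = 0.482 for MKI67 (permutation p = 0.00753) and r = 0.552 for TOP2A (permutation p = 0.00161). Both also held without SP sample 4 alone (r = 0.551 and 0.601) and without LP day 1 sample 6 alone (r = 0.738 and 0.586). Without LCP1 in the sum, r was 0.587 for MKI67 and 0.548 for TOP2A, and with the mean log2 level of the 12 markers, which weights them equally, it was 0.633 and 0.472. The last of these fell to 0.340 without SP samples 2 and 4 (permutation p = 0.0869), so the relation of TOP2A to the equally weighted markers rested on those samples. PRL tracked them less closely within groups, with r = 0.412 for MKI67 (permutation p = 0.131, adjusted 0.187) and 0.513 for TOP2A (permutation p = 0.0370, adjusted 0.075). The markers are not all limited to leukocytes, and LCP2 and PIK3CG are in both the list and the likeness ranking. A sum without LCP2 was not computed. All 12 markers are named in the study's tables, and the list was chosen with earlier results of these data known. The p-values of these relations are therefore not those of an independent choice of markers. The part of leukocytes in the levels of MKI67 and TOP2A was not tested.

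**Figure D5:**
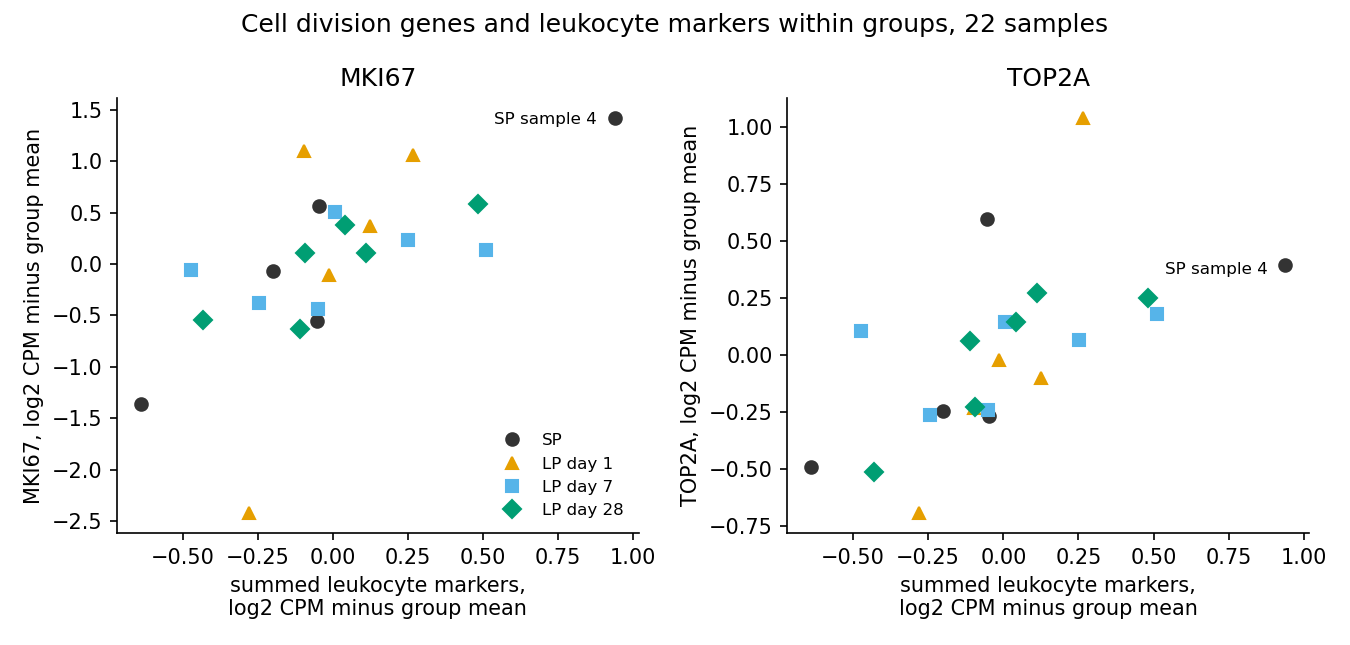
MKI67 (left) and TOP2A (right) against the summed level of 12 leukocyte markers, all as log2 CPM minus the mean of the group, in 22 samples. SP sample 4 lies farthest to the right in both panels, and r is 0.650 for MKI67 and 0.602 for TOP2A.

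Other genes of cell division were read from a list of 49 mitosis genes, of which 8 had a paired identifier. None of the 8 was DE in any pair comparison, though only 6 were tested between SPs and LP day 1, against all 8 in the other pairs. Between SPs and LP day 28, 7 of 8 had a log2 fold change above 0, with a median of 1.17 (-0.01 over all genes tested, of which 49.1% were above 0). The 8 could be paired only because the study's tables name them, and those tables draw on comparisons that include these samples. Their common direction is therefore not independent evidence of a rise of mitosis genes. BUB1B, a kinase of the spindle checkpoint, had 1.22 (FDR 0.124, edgeR), the cyclin gene CCNB2 1.45 (FDR 0.154, edgeR), and NEK2, a centrosome kinase, 1.90 (FDR 0.128, edgeR). The exception was KIF14, a cytokinesis motor, at -0.09 (FDR 0.953, edgeR). CIT, a kinase of cytokinesis, and TPX2, a spindle assembly factor, had 0.27 and 0.09, and did not pass the test.

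In the order of the 4 groups, 1 of the 8 mitosis genes passed the test, as did 1.3% of all genes tested. NEK2 rose by 0.60 log2 units per step (standard error 0.15, FDR 0.0446, edgeR), from counts of 1 to 3 in the SP samples, all at or under the floor. That call was lost in 15 of the 22 fits that left out 1 sample, with an FDR of up to 0.127 without LP day 28 sample 3. Against MKI67, the centred r was 0.50 for KIF15, 0.41 for NEK2, 0.39 for BUB1B, 0.38 for ERCC6L, 0.32 for TPX2, 0.18 for CCNB2, -0.25 for CIT, and -0.51 for KIF14. Against TOP2A it ran from 0.41 for KIF15 to -0.35 for KIF14, with 0.30 for CIT and 0.07 for BUB1B. The mitosis genes thus differed in their likeness to the pair. Relations among the 8 were not computed, and low counts, as for NEK2, add noise to r.

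Of 31 genes of DNA replication and chromatin copying, 2 were paired. EZH2, the methyltransferase of histone H3 lysine 27 in the Polycomb complex, rose from 17.2 ± 6.35 CPM on SPs (SD, n = 5) to 80.8 ± 36.8 CPM at LP day 28 (SD, n = 6), with no overlap (log2 fold change 2.22, standard error 0.29, FDR 7.85e-04, edgeR). It kept that call in the 11 fits without 1 sample and under 14 other settings, but its level ran against MKI67 between samples of a group (r = -0.39). SUV39H2, a methyltransferase of histone H3 lysine 9, rose by 0.27 per step of the order (standard error 0.06, FDR 0.0322, edgeR), a call lost in 6 of 22 fits without 1 sample (FDR 0.0983 at most without LP day 28 sample 1), and had r = 0.51 with MKI67.

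Among 3 linker histone genes, HIST1H1C fell by 0.43 per step (standard error 0.11, FDR 0.0407, edgeR), a call lost in 14 of 22 such fits (FDR 0.0942 at most without SP sample 2), and histone genes have near copies that can share reads. Among 14 genes of cell cycle entry and arrest, 3 were paired, and GADD45G, a stress-induced growth arrest gene, fell from 43.4 ± 41.4 CPM on SPs (SD, n = 5) to 1.68 ± 0.839 CPM at LP day 28 (SD, n = 6, log2 fold change -4.68, standard error 0.83, FDR 0.0118, edgeR). The groups overlapped for GADD45G, and limma with voom gave -3.58 (FDR 0.307). Scaled over 23 samples, SP samples 1 and 3 held 2.65 and 1.73 CPM, inside the LP day 28 range of 0.284 to 2.74 CPM. SP samples 2, 4, and 5 held 74.1, 45.0, and 93.4 CPM, so the fall of the mean rested on these and not on the whole SP group. GADD45B and BTG2 of that list were not DE. The genes that moved are regulators of chromatin and growth arrest as well as of the cycle, and each was listed by the study from comparisons that include these samples, so their directions are not independent evidence.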

How the data were processed

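The authors deposited raw counts of reads per Ensembl gene of the Oar_v3.1 sheep build, 1 table per sample, and the study names Bowtie and HTSeq among its tools. The headers have the form of another counting program, and which one made the counts was not settled. Strand was not stated. The 23 tables gave 25197 genes each. The analysis used edgeR 4.0.16 in R 4.3.3. Each comparison kept genes above 1 CPM in a number of samples no smaller than the smaller group, and these were TMM normalized and tested with the quasi-likelihood test, and DE genes were called at a Benjamini-Hochberg FDR under 0.05. LP day 1 samples 3 and 4 were summed because their chi-square per gene was under 1.25. CPM of MKI67 and TOP2A and group means are over 22 samples, and ranges of marker sums, the floor, and ratios within sets of sample numbers over 23. Log2 CPM for correlations used a prior count of 2 and 100000 resamples in NumPy 2.4.6, within groups for centred values.

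Symbols were paired with identifiers through the study's supplementary tables (1259 identifiers), and their columns of fold changes and p-values were not used. Named genes were MKI67, TOP2A, all paired members of lists of mitosis, replication, linker histone, cell cycle, and cell marker genes, and up to 5 genes most like each of the pair. Of the marker lists, TSHB of the PT thyrotroph list was DE from LP day 1 to LP day 28 (log2 fold change 2.29). It was not DE from SPs to LP day 28 (1.75), and its SP level ran from 47.1 to 668 CPM. Folliculostellate or glial, pars distalis, endothelial, and oligodendrocyte markers had no DE gene in a pair comparison. The members and lists were chosen with earlier results of these data known, as were SP samples 2, 3, and 5. Alternatives were other normalizations, filters, and tools (DESeq2 1.42.0, limma 3.58.1), added terms, the sample number as a replicate block, and each sample left out in turn. Every limma fit used voom with sample quality weights. The sample numbers did not pair the samples. Genome positions and sequences were not used here.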

Additional observations from a re-analysis of the deposited data

Results flagged for a closer look

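Dixon's ratio set 2 values apart from the others of their group, which chance gives for about 1 group in 20. TOP2A in LP day 1 sample 2, at 16.6 CPM, had a ratio of 0.744 against a critical value of 0.71 for 5 samples. Without that sample the log2 fold change of TOP2A from SPs to LP day 1 was -0.04 instead of 0.35. The total count of LP day 7 sample 6, 2741520, was the lowest of its group, with a ratio of 0.693 against a critical value of 0.625 for 6 samples, and its MKI67 level of 12.6 CPM was the highest of that group.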

How the results depend on the processing

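MKI67 was not DE in any fit by the quasi-likelihood test, by DESeq2, or by limma. It became DE only with an exact test that used 1 dispersion for all genes and SP samples 2, 3, and 5, chosen after seeing the data (log2 fold change 1.13 at LP day 7 and 1.43 at LP day 28), where TOP2A was DE at LP day 28 as well (0.91). TOP2A was also DE at LP day 28 with DESeq2 (0.89) and the exact test (0.89), and over the order of the groups with DESeq2 (0.30) and limma with voom (0.33). Its slope over the order was 0.27 to 0.34 when each sample was left out in turn. From SPs to LP day 1, MKI67 turned from -0.05 to 0.89 with SP samples 2, 3, and 5 under either test, to 0.78 with the replicate block, and to 0.034 with the set of the sample number as a term. The other 12 settings kept it below 0, down to -0.57 with limma. With each sample left out, MKI67 ran from -0.29 to 0.46 at LP day 1 (above 0 without SP sample 1 or 4 or LP day 1 sample 1 or 6) and from -0.040 (without SP sample 2) to 0.70 at LP day 7. From LP day 1 to LP day 7 it ran from -0.019 (without LP day 1 sample 6) to 0.47, and TOP2A ran from -0.043 (without LP day 1 sample 2) to 0.54 between SPs and LP day 1. The cause of these turns was not tested. Over the settings that kept the direction, MKI67 ran from 0.18 to 1.04 between LP days 1 and 7, from 0.11 to 0.33 between LP days 7 and 28, and from 0.092 (PRL as a term) to 1.24 (limma) between LP days 1 and 28, and TOP2A from 0.33 to 0.61, from 0.045 (library size) to 0.18, and from 0.23 (PRL as a term) to 0.78. The pooled r of the 2 genes fell to 0.39 without the 2 samples farthest from the MKI67 median.

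Sample numbers shared between groups did not pair the samples (mean r of deviations -0.05 to 0.07 over the comparisons). The replicate block left MKI67 at 0.66 and TOP2A at 0.86 at LP day 28 and changed no call of either gene. It gave 178 DE genes at LP day 7 instead of 40 and 41 at LP day 28 instead of 100. Numbers of DE genes moved most among the settings, from 6 to 357 at LP day 7, from 37 to 440 at LP day 28, from 0 to 33 at LP day 1, from 86 to 444 over the order of the groups, and from 38 to 231 for any difference. Between LP days 1 and 7 they ran from 1 to 17, between LP days 7 and 28 from 0 to 36, and between LP days 1 and 28 from 13 to 55. Each sample held 1 to 56 reads of either gene.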
